A study of Bos taurus with 18 samples.

Results

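High-depth CpG positions of the bovine autosomes were examined in sperm, where the same short stretches of DNA were read far more often than the rest of the genome. A position belonged to this set when at least 50 reads covered it in at least 3 of the 6 bulls for which read counts are listed (H01, H02, H03, L01, L02 and L03). On the 29 autosomes, 82492 positions met the rule, out of 39985997 CpG positions listed in at least 1 of 18 bulls. They are called members below. For reference, 6530502 other autosomal positions, listed in at least 3 of the same 6 bulls, served as comparison positions.

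The 18 samples were sperm DNA of adult Holstein bulls, studied by whole-genome bisulfite sequencing and grouped as high or low for 5 traits. For 4 of them the groups rest on predicted transmitting ability, the genetic merit passed to progeny, and for sire conception rate the basis is not given in the sources used here. The gestation length (GL) groups were H03, H09, L03 and L05 (high) and H02, H05, L01 and L07 (low). For sire calving ease (SCE) the high bulls were L02, H07 and H03 and the low bulls L09, H06 and H01. For body depth (BDE) they were L08, L03 and H02 (high) and L02, H09 and H05 (low), for cow conception rate (CCR) L06, H09 and H08 (high) and L09, L08 and H06 (low), and for sire conception rate (SCR) H01 to H03 (high) and L01 to L03 (low). Bulls recur between traits, each bull is a single sample, and no treatment was applied. H04 and L04 carry no group, so they are in no trait comparison. They enter only where all 18 bulls, or the 12 bulls outside the depth rule, are described or tested.

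DNA methylation in mammals falls mainly on cytosines of CpG dinucleotides, and bisulfite treatment converts unmethylated cytosines only, so the share of reads in which a cytosine survives, in percent, measures methylation. Most CpGs of mature sperm are methylated, apart from CpG islands and from repeats such as satellite DNA, which in cattle sperm is known to be undermethylated. When copies of a repeat are collapsed in a reference assembly, reads of all copies can pile up on the copy that is present, and a position then reports an average over copies.

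Members were chosen by a rule on read depth that uses no methylation value, and depth is therefore described without a test. Exactly 3 of the 6 bulls reached 50 reads at 35585 members, 4 at 29095, 5 at 15238 and all 6 at 2574. The median listed coverage of members was between 38 reads in H01 and 70 in L03, against 11 or 12 reads over all positions of a bull. Coverage is listed from 10 to 100 reads only, so a member that a bull does not list may have had fewer than 10 or more than 100. The 18 bulls listed between 25.9% (H08) and 98.4% (H01) of the members, with a median of 84.3%. H08 listed 80.9% and H01 24.5% of the comparison positions, so the share of members listed did not follow the share of other positions. Depth is unknown for the 12 other bulls.

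Members were weakly methylated in every bull. In the 12 bulls that the rule did not use, mean methylation was 17.4% ± 1.97 (SD, n = 12) at members and 80.3% ± 2.15 (SD, n = 12) at comparison positions. Members were lower in all 12 bulls, by 62.9 points on average, and the paired permutation test (two-sided, over sign flips of the 12 differences) gave p = 0.000488, the smallest it can give. Among all 18 bulls the mean over members was lowest in L06 (13.9%), had a median of 17.5% and was highest in L09 (20.3%), and at comparison positions it was between 76.7% (H09) and 83.9% (H08). The size of the gap depended on which positions a bull lists. Over the 10978 members and 159290 comparison positions listed in all 12 bulls, it was 16.1 points (21.2% ± 1.78 against 37.3% ± 1.46, SD, n = 12). Over the 10515 members and 104295 comparison positions listed in all 18 bulls, it was 6.43 points (21.3% ± 1.77 against 27.7% ± 1.57, SD, n = 12), and H06 had 24.4% at members where L06 had 24.5% at comparison positions. Members were lower in all 12 bulls in both sets (paired permutation p = 0.000488), an alternative chosen after seeing the data. Comparison positions listed in all 18 bulls were 1.60% of their set and had a median third-highest coverage of 30 reads among the 6 bulls, so low methylation was also found outside the members.

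The 12 bulls listed 72.1% ± 21.8 (SD, n = 12) of members and 52.1% ± 16.8 (SD, n = 12) of comparison positions. Members were listed more often in 10 of the 12, and the difference of 19.9 points did not pass the paired permutation test (two-sided p = 0.0532). With each run of neighbouring members counted once, the difference was 29.4 points and the permutation p was 0.00586, whereas with a coverage minimum of 75 it was 5.53 points with a permutation p of 0.615. All 12 bulls listed 10978 members (13.3%), at least 9 listed 48345 (58.6%) and none listed 71.

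Averaged over bulls, 72.8% of members had less than 20% methylation and 1.09% had more than 80%, whereas 7.75% and 79.6% of comparison positions did. The drop lay well below the coverage of the rule. Positions were ordered by their third-highest coverage among the 6 bulls, and methylation was measured in the 12 others. It was 85.1% ± 1.30 (SD, n = 12) at 10 to 14 reads, 63.7% ± 2.87 at 15 to 19, 27.7% ± 2.16 at 20 to 24 and 22.1% ± 1.70 at 25 to 29. From 45 to 49 reads it was 17.8% ± 1.60, and from 50 to 54 reads it was 17.6% ± 1.72. At the edge of the rule, positions with 48 and 49 reads outside it had 17.8% and 17.7%, and those with 50, 51 and 52 reads inside it had 17.5%, 17.9% and 17.4%. The threshold of 50 reads thus fell on a plateau, and neighbours on either side of it differed by less than 1 SD between bulls. Since methylation fell as depth rose, depth moved with the result, and its part in the low percent was not tested.

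**Figure D1:**
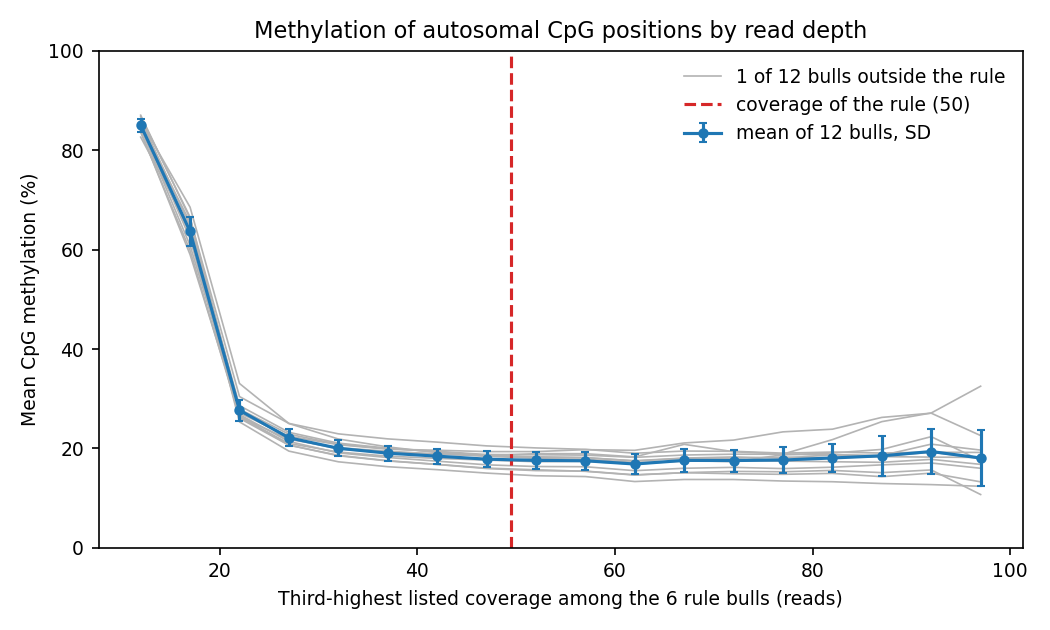
Mean CpG methylation in percent (y) against the third-highest listed coverage in reads among the 6 bulls of the rule (x), with a grey line for each of the 12 bulls outside the rule and points with SD bars for their mean. Methylation falls from 85.1% at 10 to 14 reads to 27.7% at 20 to 24 reads and is 17.6% in the bin just inside the threshold (dashed line).

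Members lay close together. Joined where neighbours were no more than 500 bp apart, they formed 4926 clusters with a median of 11 members and a median length of 290 bp. The 2636 clusters of at least 10 members held 88.8% of members, and 486 members stood alone. In 82.1% of these larger clusters mean methylation was below 20%, while 64 were above 50% and 9 above 80%. CpGs were dense there, with a median of 3.80 CpG sites per 100 bp. The cytosines on opposite strands of 1 CpG, measured from different reads, were both members at 11141 sites and differed by a median of 1.24 points, against 5.92 points between neighbouring sites. Low methylation did not end at the cluster edge. As a mean of 18 bulls, positions 1 to 50 bp outside the larger clusters had 14.2% ± 1.31 (SD, n = 18), those over 500 and up to 1000 bp away 15.4% ± 1.14, those over 2000 and up to 5000 bp away 37.5% ± 5.51, and those over 5000 and up to 10000 bp away 67.0% ± 4.76. Non-member positions inside the clusters had 15.3% ± 1.35 (SD, n = 18), next to 15.2% ± 1.45 at members within 50 bp of the edge.

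**Figure D2:**
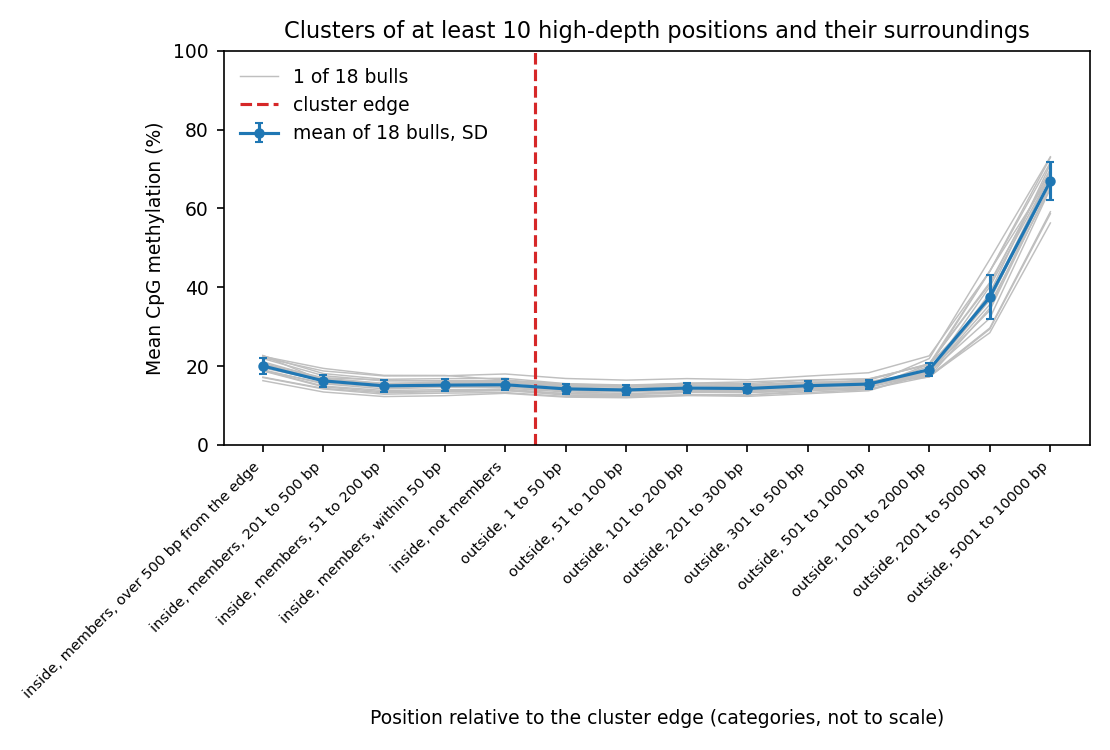
Mean CpG methylation in percent (y) by distance from the edge of clusters of at least 10 members (x, distance classes not to scale), with a grey line per bull and points with SD bars for the mean of 18 bulls. Values stay between 13.95% and 20.04% from inside the clusters to 2000 bp outside, and reach 67.0% in the class that ends at 10000 bp.

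The label "repeat-like" was checked by spacing, since no genome of the UMD3.1 build was used here. Each run of 6 successive sites of a set, with CpGs outside that set skipped, was described by its 5 gaps in bp, read in either orientation. Copies of a repeat should share such spacings. Of 46096 runs in members, 64.9% had a spacing that occurred elsewhere among members and 46.5% occurred in at least 10 copies. In the comparison positions 12.3% of 1720205 runs recurred. Those runs had a median span of 295 bp, against 88 bp in members, so the sets also differed in density, whose part was not tested. Among runs spanning at most 150 bp, 79.5% recurred in members and 43.0% in the comparison set. These shares are descriptions. They count runs rather than members: most runs in members recurred but not all, and many short runs of the comparison set recurred as well.

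Clusters that shared at least 3 spacings were joined into families, which are named here by letters. The 21 families took in 2109 clusters (42.8%) and 76.0% of members. Requiring 2 or 5 shared spacings gave 2291 or 1710 clusters in families. Family A was by far the largest, with 1393 clusters and 39106 members (47.4%), and it was found on all 29 autosomes. Family B held 540 clusters and 18198 members (22.1%) on 20 chromosomes, with 166 clusters on chromosome 27 and 122 on chromosome 8. Family C had 80 clusters, D 26 and E 22.

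Families differed in their median level of methylation, and the ranges of some families overlapped while those of others did not. The median over clusters was 11.5% in A (5th to 95th percentile 6.39% to 18.9%), 18.7% in B (11.8% to 31.0%) and 13.9% in C (11.1% to 16.99%). D and E had medians of 3.72% (1.52% to 21.01%) and 4.57% (3.54% to 7.65%). The 2817 clusters outside any family were more mixed, with a median of 19.0% and a 5th to 95th percentile from 5.06% to 74.99%. They had a median of 5 members, and clusters with too few sites for 3 spacings could not join a family. Across the 18 bulls the mean over family A ranged from 9.92% to 14.7% with a median of 12.1%, and over family B from 17.5% to 22.2% with a median of 18.8%. The bulls' ranges of A and B did not overlap.

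Within families the level differed from CpG to CpG. Family A was aligned on its most frequent spacing, with gaps of 3, 7, 9, 3 and 7 bp, which occurred in 272 copies in 266 clusters. Of 19 sites shared by at least 30% of copies, the site 60 bp before the start of the spacing had a median of 20.6% over copies, while its neighbour at 53 bp before had 4.17%. The sites 41 and 105 bp after the start had 1.78% and 1.49%. In family B, aligned on gaps of 7, 8, 6, 19 and 10 bp (121 copies), a run of sites rose from 15.2% at the start through 28.99% and 34.7% to 39.9% at 21 bp, and the next site at 40 bp had 10.4%. In family C (gaps of 2, 8, 16, 3 and 17 bp, 35 copies) medians lay between 5.17% and 27.7%. The quartiles over copies were narrow beside these steps, for example 18.5% to 23.2% at the highest site of family A. Reads of copies that the assembly lacks can pile up on a copy that is present, so a profile may be an average over copies. The copies were therefore not treated as independent measurements.

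**Figure D3:**
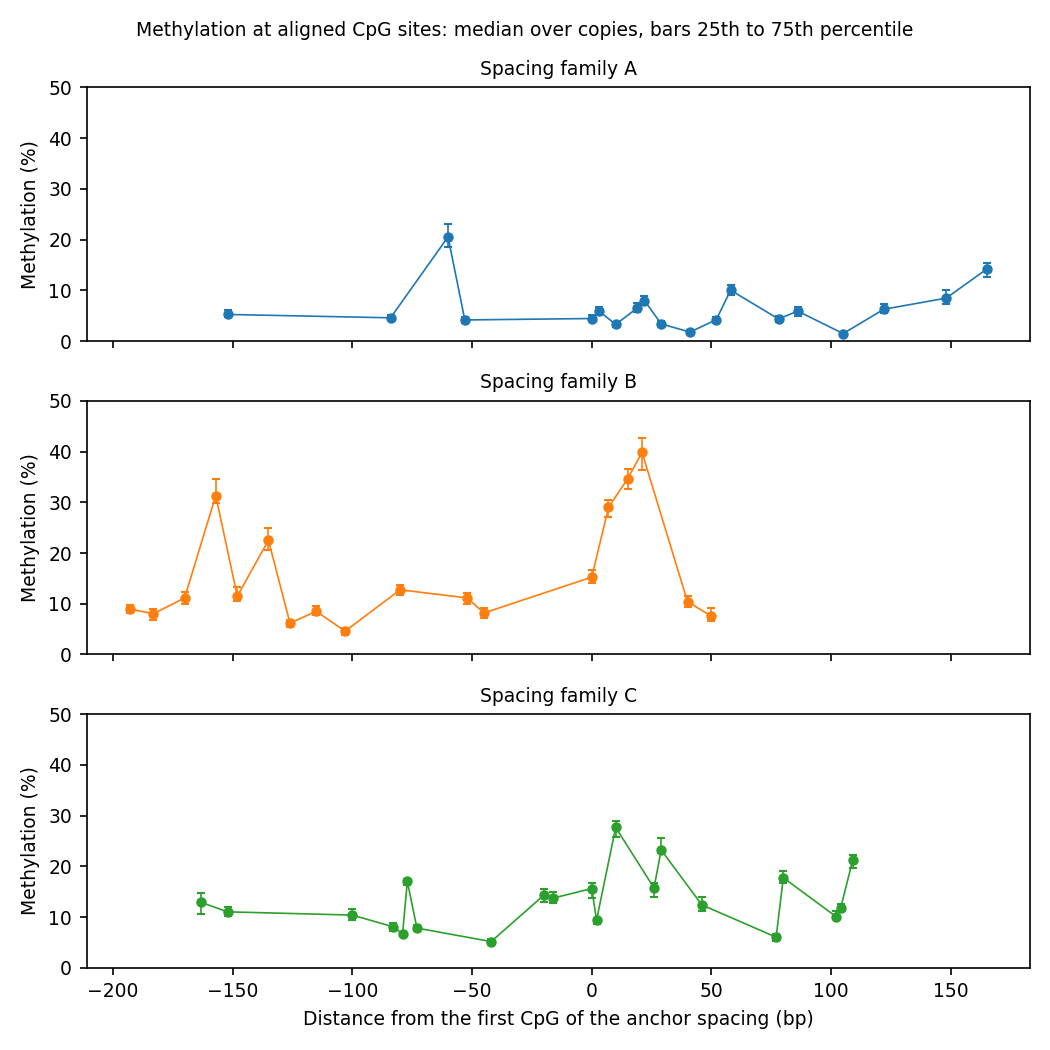
Median methylation in percent (y) at CpG sites aligned on the anchor spacing of families A, B and C (x, distance in bp from the first CpG of the anchor), with bars from the 25th to the 75th percentile over copies. Family A peaks at 20.6%, 60 bp before the anchor, and family B at 39.9%, 21 bp after its start.

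The chromosomes carried very different shares of members. Chromosome 8 held 11223 (13.6%) and chromosome 27 held 9411 (11.4%), which made 207 members per Mb on chromosome 27 against 5.99 on chromosome 12. In 23 windows of 1 Mb that held at least 40 clusters each, a limit set after the values were seen, lay 39.8% of members. The windows at chr27:28000001-29000000 and chr8:74000001-75000000 had 6134 and 4542 members, and 164 of their 246 and 118 of their 175 clusters belonged to a family. Mean methylation over members was 17.1% on chromosome 27 and 15.6% on chromosome 8. It was highest on chromosomes 14 (31.6%), 17 (30.5%) and 21 (27.0%).

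Chromosomes 14 and 21 also held many clusters of intermediate methylation. In chr14:1-2000000 there were 254 clusters with a mean between 20% and 80%, holding 1985 members, and in chr21:1000001-3000000 there were 77, holding 520 members. None of them belonged to a spacing family, but joining one takes 3 shared spacings of 6 sites each. Clusters had a median of 4 members on both chromosomes, so many were too small to join. These intermediate clusters differed widely between bulls. On chromosome 14 the mean over the members a bull listed was lowest in H09 (32.8%), had a median of 44.6% and was highest in H07 (58.3%). On chromosome 21 it was 33.2% in H09, had a median of 45.5% and was 57.5% in H07. The bulls thus took almost the same values on both chromosomes: the difference within a bull had a median of 0.448 points and was at most 2.28 points, beside a range between bulls of 25.5 points on chromosome 14. By the same limits, chr27:28000001-29000000 held 97 intermediate clusters (2313 members) and chr8:74000001-75000000 held 67 (2012 members). Bulls differed less there, from 21.6% to 27.2% and from 21.7% to 26.9%, so a wide range was not general to intermediate clusters.

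The bulls kept their extremes at a common set of positions. Over the 529 members of chromosome 14 and the 146 of chromosome 21 listed in all 18 bulls, H09 was again lowest, at 32.1% and 34.8%, and H07 highest, at 57.2% and 60.3%. Chromosome 21 lay above chromosome 14 in each of the 18 bulls, by 2.71 to 4.88 points. Clusters under 20% in the same windows had narrower ranges in points. Over bulls they had 6.33% to 11.0% at chr14:1-1000000 (975 members), 5.48% to 17.4% at chr14:1000001-2000000 (104 members), 5.10% to 12.5% at chr21:1000001-2000000 (57 members) and 4.60% to 9.54% at chr21:2000001-3000000 (328 members). In the chromosome 14 windows H07 was the highest bull here too, and in those of chromosome 21 it was H06. Intermediate clusters in chr17:50000001-52000000 ranged from 35.2% in L06 to 52.9% in L03, with H07 at 38.2%, and those in chr6:5000001-7000000 from 31.3% in L09 to 50.1% in L03. The order of bulls on chromosomes 6 and 17 was therefore a different one. Both the windows and the limits of 20% and 80% were chosen after the values were seen, and no test was made.

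**Figure D4:**
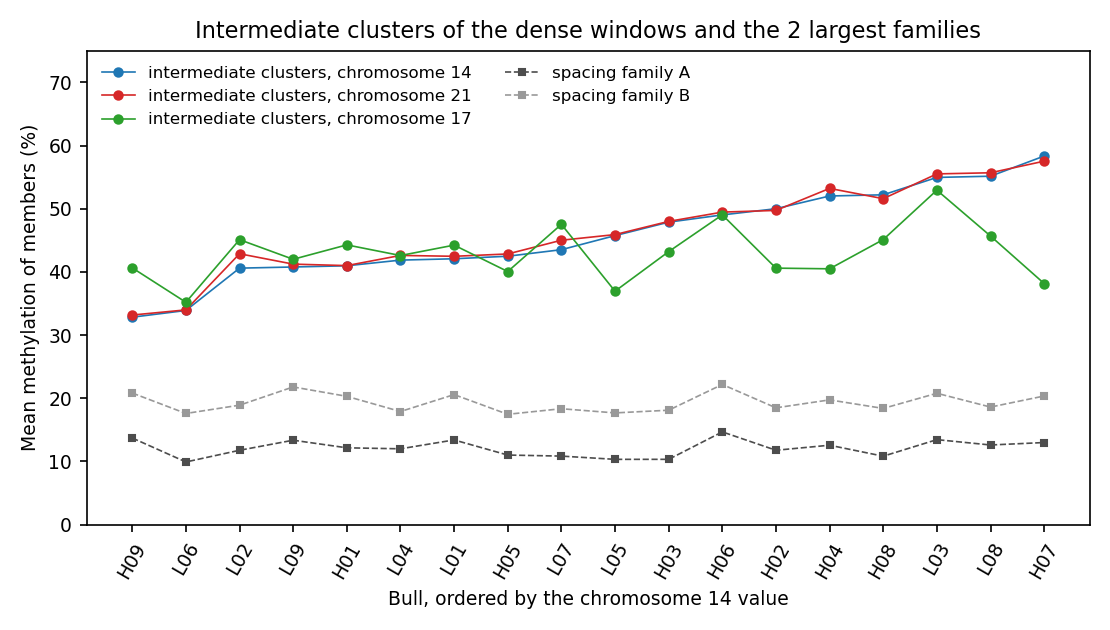
Mean methylation of members in percent (y) for each of 18 bulls (x, ordered by the chromosome 14 value), for intermediate clusters of the windows on chromosomes 14, 21 and 17 and for spacing families A and B. Chromosomes 14 and 21 run together from H09 (32.8% and 33.2%) to H07 (58.3% and 57.5%), while families A and B stay between 9.92% and 22.2% in all bulls.

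Single clusters show the extremes. The cluster with most members, chr3:8102944-8111730, had 479 members over 8787 bp, a mean of 43.5% and an SD of 38.7 points between its members. It consisted of weakly methylated ends and a methylated middle. Its first 500 bp had 1.68% over 20 members, the step from 2500 to 3000 bp had 84.1% over 38, and the last step from 8500 bp had 1.66% over 21. The next in size, chr5:114150116-114155762 (206 members, family B), had a mean of 20.1%, between 17.6% in L07 and 23.2% in H06. The third, chr6:89216303-89219786 (155 members, family A), had 18.02%, between 15.9% in L06 and 21.8% in L01. The other 7 of the 10 largest had 116 to 151 members and means from 9.10% to 25.1%.

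Among clusters of at least 10 members, the least methylated was chr14:398858-399805 (35 members, family D) with 1.19%, between 0.650% in H08 and 1.97% in H06. The other 4 of the 5 lowest, on chromosomes 6, 8 and 14, had 1.19% to 1.47%. The most methylated was chr21:71010232-71010395 (24 members) with 94.97%, between 88.8% in L06 and 96.9% in H06, and the other 4 of the 5 highest, on chromosomes 8, 17 and 21, had 88.4% to 93.2%. None of the 5 highest belonged to a family. Of the 5 clusters of at least 5 members with the largest range between bulls, 3 lay within chr16:55855017-55917074. At chr16:55857707-55858317, L09 had 21.04% over 3 listed members and H06 92.1% over 9. In each of the 5 clusters at least 1 extreme rested on 1 to 3 listed members, such as the 80.6% of L04 from 1 of 41 members at chr5:114173457-114175362 and the 1.49% of H08 from 1 of 7 at chr24:269463-269685.

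At single members the spread between bulls varied with the level of methylation. In the 6 bulls with listed reads, the SD between bulls at the 48098 members listed in all of them had a median of 4.23 points, and the sampling of reads alone gave 4.42. The variance between bulls divided by the variance from sampling had a median of 1.03 and a mean of 1.24 at members. At the 262697 comparison positions it had a median of 0.977 and a mean of 1.23. With 6 bulls the median of such a ratio runs below its mean, so the medians do not show that bulls varied no more than reads. In the 12 other bulls, 10978 members listed in all of them had a median SD of 4.93 points, which was 3.26 points for members under 10% and 10.3 points for those from 50% to 80%.

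Group means were compared next, to ask whether members as a whole differed with a trait. Members listed in every bull of a comparison were averaged per bull, and exact permutation tests (two-sided) compared the bulls. For GL, the high bulls had 16.6% (H03), 18.01% (H09), 19.8% (L03) and 16.1% (L05), and the low bulls 17.4% (H02), 16.2% (H05), 18.6% (L01) and 16.6% (L07), over 35575 members. These values overlapped, with means of 17.6% ± 1.67 (SD, n = 4) and 17.2% ± 1.06 (SD, n = 4), and the difference of 0.445 points gave an exact p = 0.714, where the smallest possible is 0.0286. Without L03 it was -0.276 points.

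For CCR, the high bulls had 20.6% (H08), 20.5% (H09) and 17.3% (L06), and the low bulls 23.6% (H06), 21.7% (L08) and 21.1% (L09), over the 13937 members that all 6 list. The groups did not overlap, with the high bulls lower by 2.62 points, and the exact permutation p was 0.1, the smallest that 3 bulls against 3 allow. These members were 16.9% of the total, and H08 listed 25.9% of all members. Over all members that a bull lists, the difference was -2.10 points with overlapping groups (exact p = 0.4), and with each cluster counted once the exact p was 0.2. Comparison positions differed in the same direction by 1.74 points. Adjusted by Benjamini-Hochberg over the 5 traits, the permutation p was 0.5 for CCR, SCE, BDE and SCR and 0.714 for GL.

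For SCE, the high bulls had 18.2% (H03), 20.8% (H07) and 18.8% (L02), and the low bulls 19.1% (H01), 22.1% (H06) and 20.1% (L09), a difference of -1.15 points (exact p = 0.4). It was -0.638 points with each cluster counted once and -1.88 over all members that a bull lists. For BDE, the high bulls had 17.5% (H02), 19.97% (L03) and 18.6% (L08), and the low bulls 16.3% (H05), 18.1% (H09) and 17.5% (L02), a difference of 1.35 points (exact p = 0.3). For SCR, whose bulls are those of the depth rule, the high bulls had 17.3% (H01), 16.9% (H02) and 16.1% (H03), and the low bulls 18.2% (L01), 16.96% (L02) and 19.2% (L03), a difference of -1.39 points (exact p = 0.2), or -0.804 points when members were weighted by their listed reads (exact p = 0.3). With each cluster counted once it was -1.66 points, and for members with 50 reads in all 6 bulls -1.86 points (exact p = 0.1 in both, the smallest possible). In both of these SCR alternatives the groups did not overlap. In the main comparison groups overlapped in all 3 traits, and no trait passed the test over members as a whole. Comparison positions differed by -0.712, 0.897 and -1.07 points (exact p = 0.7, 0.3 and 0.1). The value for SCR is the smallest possible, so the SCR groups did not overlap at comparison positions either.

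**Figure D5:**
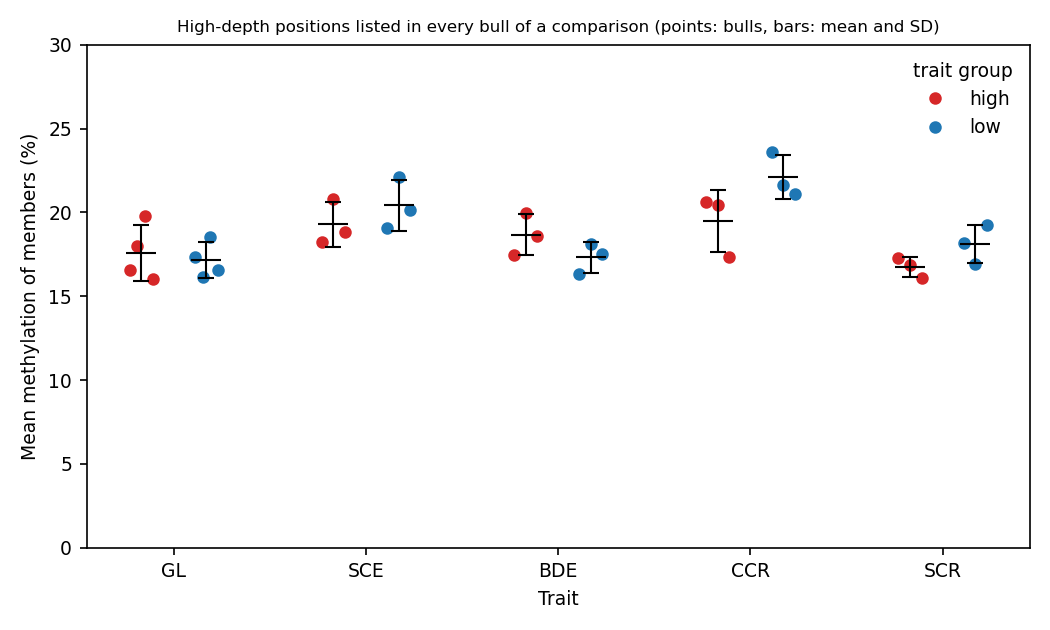
Mean methylation in percent (y) over members listed in every bull of a comparison, by trait (x), with a point per bull, red for the high and blue for the low group, and bars for mean and SD. Groups overlap in GL, SCE, BDE and SCR, and in CCR the high bulls (17.3% to 20.6%) lie below the low bulls (21.1% to 23.6%).

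In tiles of 2000 bp, tested over the whole genome, 4534 of the tiles held a member, with a median of 14 members each. A tile was called when q was under 0.01 and the groups differed by over 5 points in a logistic test that treats every read as a separate observation and ignores how bulls of a group vary. For GL, 196 of 4503 tested member tiles were called (4.35%), beside 8.75% of all tested tiles. For SCE it was 198 of 4507 (4.39%, beside 6.18%), for BDE 497 of 4508 (11.0%, beside 7.57%), for CCR 498 of 4495 (11.1%, beside 11.1%) and for SCR 387 of 4510 (8.58%, beside 8.68%). Member tiles were therefore called less often than all tiles for GL and SCE, more often for BDE, and near the background for CCR and SCR, and these shares were not compared by a test. For GL, SCE, BDE and CCR each position counted as 10 reads. Members had a median of 38 to 70 listed reads in the 6 bulls with counts, so their shares at real depth are not known. SCR used listed reads, the same coverage that chose the members, so its member tiles entered the test with more reads by the rule itself. Its share beside all tiles is therefore a description only. With 10 reads per position, as in the other traits, 3.55% of SCR member tiles were called beside 6.05% of all tiles. With listed reads and 1 bull left out, SCR member tiles were called more often than all tiles in 5 of 6 cases, up to 12.3% beside 9.26% without L01, and less often without H02 (8.05% beside 8.47%). The order depended on the positions used: with only positions listed in every bull, member tiles were called more often than all tiles for each trait, at 0.629% beside 0.341% for GL, 0.494% beside 0.316% for SCE, 5.29% beside 0.799% for BDE, 2.69% beside 0.541% for CCR and 4.46% beside 1.41% for SCR.

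The high group had lower methylation in 68 of the called member tiles for GL (22263 of 51871 over all tiles), in 69 for SCE (19051 of 33224), in 91 for BDE (15733 of 41634), in 413 for CCR (46695 of 60906) and in 300 for SCR (24947 of 47656). Leaving out 1 bull turned the balance in 3 traits. Without L03 there were 98 lower and 79 higher member tiles for GL, and 183 lower and 235 higher for SCR. For SCE there were 160 lower and 81 higher without H01, 109 and 82 without H07, and 154 and 88 without L09. The F test with overdispersion and limma with Benjamini-Hochberg adjustment, which estimate the spread between bulls, called 0 tiles for every trait, members or not. At an unadjusted p under 0.05 and the same difference, the F test gave 66, 43, 291, 124 and 50 member tiles for GL, SCE, BDE, CCR and SCR, and limma gave 18, 9, 75, 17 and 2. Over all tiles these rules called 3.69%, 3.41%, 3.7%, 3.37% and 2.72% by the F test and 3.59%, 3.3%, 3.84%, 3.61% and 3.4% by limma. Member tiles thus fell below all tiles for every trait by limma, and for every trait but BDE by the F test. The F test held the dispersion at 1 or more for SCR only, so its SCR counts come from a stricter form than those of the other traits.

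The BDE calls were concentrated in the intermediate stretches of chromosomes 14 and 21. In chr14:1-2000000 and chr21:1000001-3000000, 269 of 414 member tiles were called for BDE (64.98%), 268 of them higher in the high bulls. Elsewhere 228 of 4094 member tiles were called (5.57%), beside 7.50% of all tiles there, so outside the windows the BDE share of member tiles was below that of all tiles. In the same windows 168 of 763 tiles without a member were called (22.0%). In the intermediate clusters of chr14:1-2000000 alone, the members' means were 49.998% (H02), 55.0% (L03) and 55.1% (L08) in the high-BDE bulls. They were 42.5% (H05), 32.8% (H09) and 40.6% (L02) in the low-BDE bulls. CCR, with H09 in the opposite group, had 178 of 412 member tiles called there (43.2%), all lower in the high bulls, beside 7.84% of member tiles elsewhere (11.02% of all tiles there) and 156 of 794 tiles without a member in the windows (19.6%). In the same intermediate clusters of chr14:1-2000000, the members' means were 52.2% (H08), 32.8% (H09) and 33.9% (L06) in the high-CCR bulls. The low-CCR bulls had 49.0% (H06), 55.1% (L08) and 40.8% (L09), so the groups overlapped. The share of member tiles called inside and outside the windows was 13.8% and 3.44% for SCE, 19.3% and 7.50% for SCR and 4.85% and 4.30% for GL, where 6.17%, 8.67% and 8.75% of all tiles outside were called. For SCR, 56 of the called member tiles inside were higher and 24 lower in the high bulls, against 31 higher and 276 lower outside. Of tiles without a member in the windows, 7.15% were called for SCE, 10.1% for SCR and 7.02% for GL. BDE and CCR share H09 and L08, each in opposite groups. Among all 18 bulls H07, in neither comparison, was highest in the intermediate clusters, so the windows varied beyond these groups. Without the windows, the difference over members was 0.775 points for BDE (exact p = 0.5) and -2.27 for CCR (exact p = 0.2), an alternative chosen after seeing the data.

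Groups did not overlap in 49 of the member tiles tested for GL (1.09%, beside 3.3% of all tiles), 655 for SCE (14.5%, beside 9.26%), 587 for BDE (13.02%, beside 10.1%), 604 for CCR (13.4%, beside 9.94%) and 686 for SCR (15.2%, beside 9.18%). The tiles with the largest change among those called and not overlapping are given by their bulls. The largest BDE gain, at chr14:344001-346000 with 2 members, had 80.1% (H02), 88.8% (L03) and 83.5% (L08) in the high bulls, and 33.7% (H05), 13.8% (H09) and 36.7% (L02) in the low bulls. The high bulls listed 4 or 5 positions of that tile and the low bulls 13 to 24, so the positions differed between groups. The largest BDE loss, at chr3:78862001-78864000 with 7 members, had 8.79% (H02), 6.18% (L03) and 14.2% (L08) in the high bulls, and 45.1% (H05), 33.3% (H09) and 48.2% (L02) in the low bulls. The largest CCR gain, at chr27:25152001-25154000 with 7 members, had 64.8% (H08), 31.4% (H09) and 46.8% (L06) in the high bulls, and 20.5% (H06), 22.3% (L08) and 15.3% (L09) in the low bulls, and H08 listed none of those members.

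The other 7 tiles named by the same rule held 1 member each, and most bulls listed other positions of the tile too. The member itself was not listed by H05 at the GL loss, by H03, H07 and H06 at the SCE gain, by L06 and H06 at the CCR loss or by L01 at the SCR loss, so those differences compare partly different positions. Pooled over positions, the high group differed by -19.3 points at chr3:100650001-100652000 and 22.8 at chr7:1770001-1772000 for GL, and by -13.03 at chr18:57568001-57570000 and 33.2 at chr2:41108001-41110000 for SCE. The differences were -26.8 points at chr17:50856001-50858000 for CCR, and -29.5 at chr15:71762001-71764000 and 12.3 at chr14:772001-774000 for SCR. At the GL gain, H09 and H02 listed the member alone, and at the SCE gain H06 and L09 each listed 1 position, which in L09 was the member. Limma's adjusted p was at least 0.980 for every member tile of the 5 traits.

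With listed reads, single positions could be tested for SCR. The same reads chose the members, which had a median of 57 reads against 18 at comparison positions. Shares of members called beside all positions are therefore descriptions only. Of 48098 members listed in all 6 bulls, 26 were called by the logistic test with Benjamini-Hochberg adjustment over all 310795 positions (0.0541%, beside 0.124% of all positions), 20 of them lower in the high bulls (210 of 385 over all positions). Without L03, 13 members were lower and 17 higher. The F test and limma called 0 members, and at an unadjusted p under 0.05 they gave 397 (0.825%) and 886 (1.84%), beside 0.742% and 4.27% of all positions. At an adjusted p under 0.01 limma called 0.000322% of all positions. On simulated SCR positions changed by 30 points, with bulls of a group at the same level, the logistic test called 177 of 200. The F test and limma called 0 of these, so their 0 at members cannot tell whether members changed. Of the 40929 members with at least 20 reads in all 6 bulls, the logistic test called 12 (0.0293%, beside 0.0214% of all such positions). Without H02 the logistic test called 12 members (0.0249%, beside 0.1104% of all positions). The 26 lay in 18 clusters. The cluster with most, chr6:5595230-5595483, had 4 called of 8 tested members and means of 45.4% (H01), 31.7% (H02) and 44.1% (H03) against 54.4% (L01), 56.5% (L02) and 61.4% (L03). In chr11:5352460-5352857, 3 of 17 tested members were called, with means of 91.1%, 90.0% and 80.1% in H01, H02 and H03 and 80.3%, 84.6% and 79.4% in L01, L02 and L03. These clusters were singled out after their values were seen.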

How the data were processed

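Per the submitters' processing notes, reads were checked with FastQC 0.11.2, trimmed with Trim Galore 0.4.0 and mapped to UMD3.1 with Bowtie2 and Bismark 0.14.5. For 6 bulls the authors deposited the count of reads (coverage) at each CpG position and the percent methylated, and for 12 bulls the percent only. Positions below 10 reads are not listed, and the listed coverage ends at 100. The members, families and windows were chosen with earlier results of these data known. Positions in GL, SCE, BDE and CCR tiles counted as 10 reads each, a departure from a test on counts, since coverage is not listed for every bull, and SCR used listed counts.

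Named clusters were the 10 with most members, the 5 lowest and 5 highest in methylation among those of at least 10 members, and the 5 of at least 5 members with the largest range between bulls, and named tiles were the largest loss and gain per trait among called tiles without overlap. Tiles were tested with a logistic likelihood ratio test, q by a simplified SLIM method (share of unchanged tiles from 10 segments of p between 0.1 and 1), and positions with Benjamini-Hochberg adjustment. Alternatives were an F test with overdispersion, limma 3.58.1 (R 4.3.3) on log2 ratios (methylated over unmethylated reads, 1 added to both), other coverage and difference limits, other position sets and each bull left out. On simulated GL tiles changed by 30 points, the logistic test called 195 of 200, and the F test and limma 0. In tiles of at least 200 reads per bull, at 10 reads per position, changed by 60 points, each called 200 of 200. The simulated bulls of a group shared the same level, so these counts do not show what the F test and limma could call in real bulls. Python 3.11.15, NumPy 2.4.6, SciPy 1.17.1 and matplotlib 3.10.9 were used. Genes and sequences were not analysed here. The permutation, F and limma p-values measure the spread between bulls, and those of the logistic test measure the sampling of reads only. For GL, SCE, BDE and CCR that sampling is at an assumed 10 reads per position, not at the real depth.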

Additional observations from a re-analysis of the deposited data

Results flagged for a closer look

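Positions off the autosomes that met the same depth rule were not part of the comparisons. The rule was met by 2845 positions on chromosome X, with a mean methylation of 19.3% ± 2.37 (SD, n = 12) in the 12 bulls outside the rule, and by 7306 positions on 634 unplaced sequences, with 18.9% ± 1.77 (SD, n = 12). The bulls ranged from 14.7% to 22.3% on chromosome X and from 17.1% to 22.5% on unplaced sequences. Below 20% were 72.2% and 68.9% of these positions. On the mitochondrial sequence 0 positions met it. In 34 groups of 4 GL bulls, no bull stood apart from the others by Dixon's criterion.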

How the results depend on the processing

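The methylation gap to comparison positions was 62.9 points, 16.1 at positions listed in all 12 bulls and 6.43 at those listed in all 18. With a coverage minimum of 40, or 50 reads in 2 of 6 bulls, the difference in listing passed the test (25.9 and 18.8 points, permutation p = 0.0107 and 0.0498), as it did with clusters counted once (29.4 points). With a minimum of 75 or with 6 of 6 bulls it did not (permutation p = 0.615 and 0.0693). Leaving out 1 bull gave group differences from -0.276 to 0.977 points for GL, -1.89 to -0.290 for SCE, 0.608 to 1.95 for BDE, -3.08 to -1.55 for CCR and -1.97 to -0.845 for SCR, and called member tiles from 155 to 290, 191 to 274, 441 to 572, 340 to 672 and 363 to 555. Shares over all tiles moved too: CCR member tiles were below all tiles without H08 (14.9% beside 16.9%), L06 (7.56% beside 8.79%) and L08 (10.6% beside 10.97%) and above without H06 (10.4% beside 8.53%), H09 (12.3% beside 11.1%) and L09 (13.8% beside 11.7%). SCR was tested with the listed reads that also chose the members. Its share was above without L01 (12.3% beside 9.26%), H03 (11.6% beside 8.87%), L02 (10.2% beside 8.77%), H01 (10.2% beside 9.38%) and L03 (9.27% beside 8.60%) and below without H02 (8.05% beside 8.47%). Whichever bull was left out, the share of member tiles called by the logistic test stayed below that of all tiles for GL and SCE and above it for BDE. By limma at an unadjusted p under 0.05, BDE member tiles were below all tiles (1.66% beside 3.84%). SCR positions went from 12 (without H02) to 37. With a difference over 10 points, called member tiles were 82 for GL (1.82%, beside 4.90% of all tiles), 84 for SCE (1.86%, beside 4.65%), 379 for BDE (8.41%, beside 5.53%), 264 for CCR (5.87%, beside 7.09%) and 95 for SCR (2.11%, beside 5.64%). With only positions listed in every bull they were 28, 22, 236, 118 and 200 for GL, SCE, BDE, CCR and SCR, in each trait a larger share than over all tiles, and with the F test or limma 0 each. With 10 reads per position SCR had 160 (3.55%, beside 6.05%), and outside the windows of chromosomes 14 and 21 BDE had 228 (5.57%, beside 7.50%) and CCR 320 (7.84%, beside 11.02%). SCR positions were 0 with the F test and limma and 12 with at least 20 reads in all 6 bulls. The cause of these changes was not tested. Of 167 values under alternatives, 137 kept their direction and side of the threshold or stayed within 1.5 times. This count is no measure of robustness. For SCE, BDE, CCR and SCR group means the exact p cannot go below 0.1, so only a change of direction could count. The methylation gap also counted as kept when it fell from 62.9 to 6.43 points. Depth limits what can be said: for 12 bulls it is unknown, above 100 reads nothing is listed, and the permutation test with 3 bulls against 3 cannot go below 0.1. High and low bulls could not be paired because the replicate numbers do not link bulls across groups.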
